A study of Homo sapiens with 6 samples.

Results

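CALB2 (calretinin) and 9 S100 genes make up a set of small EF-hand calcium-binding proteins that was followed here in libraries labelled as HT29, a human colorectal cancer cell line. The 10 genes were chosen by name with earlier results of the same comparison known, so their differences between the groups, and the count of those past edgeR's threshold, are given as a description and support nothing. All 10 were found among the 56638 gene symbols listed, and 9 of them passed the filter on low counts that left 14685 genes. S100P did not pass it. The 14 gene lists set beside the members were also chosen with earlier results of these data known. Their counts, shares and adjusted p-values are thus given as a description too.

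The groups were cells transfected with an siRNA against RNF6, a RING-type ubiquitin ligase, and cells transfected with a control siRNA, with 3 libraries each. All 6 libraries were labelled as the same cell line at passages 16 to 19, while siRNA sequences and harvest times are not stated in them. Separate cultures for the replicates are not stated in the labels, so the p-values reflect how far these libraries scatter, and that scatter may be purely technical. Reads assigned to genes numbered 11051552, 6808771 and 11071456 in the RNF6 siRNA libraries, against 7173957, 9096826 and 9366532 in the control libraries. Levels are given as CPM, gene-assigned counts scaled to a common library size after scaling for library composition, and a log2 fold change is the RNF6 siRNA group over the control group.

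S100 proteins are small, mostly dimeric proteins whose EF-hand loops bind calcium, after which most of them open a hydrophobic face and dock onto a partner such as an annexin, a myosin or a receptor. Most S100A genes lie side by side on chromosome 1, while S100P lies on chromosome 4. Calretinin is an EF-hand protein of another branch that acts as a calcium buffer in neurons and in mesothelium, where pathologists use it as a marker, and it has also been described in colorectal cancer cells.

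RNF6 itself had 16.5, 16.2 and 16.9 CPM in the RNF6 siRNA libraries, against 54.3, 45.2 and 57.8 CPM in the control libraries. Its mean was 16.5 ± 0.316 CPM in RNF6 siRNA cells and 52.5 ± 6.51 CPM in control cells (SD, n = 3 each), a 3.17-fold lower level with a log2 fold change of -1.66 (SE 0.126; edgeR's quasi-likelihood test, Benjamini-Hochberg adjusted p = 2.12e-06). The labels therefore matched the targeted gene in every library.

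The labelled cell type was checked against epithelial and intestinal markers. EPCAM, the epithelial adhesion molecule, averaged 226.7 ± 15 CPM in RNF6 siRNA cells and 218.0 ± 9.91 CPM in control cells (SD, n = 3 each), and CDX2, the intestinal transcription factor, averaged 16.1 ± 0.823 and 15.9 ± 2.48 CPM in the same groups. However, 5 of the 12 markers, CDX1, VIL1, LGALS4, CDH17 and CEACAM5, stayed below 1 CPM in every library, with 0.738 CPM as the highest value, and CDX1 had 0 reads. These 5 are genes of the differentiated intestinal lining, and for them the libraries went against a colorectal label. The whole list summed to between 2445 and 2829 CPM in the RNF6 siRNA libraries and to between 4352 and 5653 CPM in the control libraries, and 4 of its 7 tested genes fell and 0 rose. Keratin genes made up that fall, which is 57.1% of the tested genes of the list, beside 16.1% lower over all genes tested. Among them was KRT20, which passed the filter on low counts through its control libraries only. KRT8, the marker with the most reads, was at 1256 ± 103.8 CPM in RNF6 siRNA cells and 3064 ± 441.9 CPM in control cells (log2 fold change -1.29, SE 0.120, edgeR adjusted p = 9.37e-06). KRT18 fell further. Without any 1 library its log2 fold change lay between -1.75 and -1.49, and that of KRT8 between -1.41 and -1.22. KRT8 has many processed pseudogenes. Reads aligned to several places were kept in a row of their own, 11.4% to 12.5% of each library's reads, and not counted to genes. How many of them came from KRT8 is not known. In bulk RNA, fewer cells of a type and less RNA per cell cannot be told apart.

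Of the 9 members in the edgeR fit, counted as a description, 6 lay past its threshold of adjusted p below 0.05 as lower in RNF6 siRNA cells, 1 lay past it as higher and 2 did not reach it. All 9 passed the filter on low counts in both groups. Over all 14685 genes tested, 16.1% passed as lower and 16.6% as higher, 32.7% in all, and nothing is read from the members' count, because their choice drew on this contrast. The members' median log2 fold change was -0.53, beside 0.01 over all genes tested. The same 6 members had all RNF6 siRNA libraries below all control libraries, and the same 1 had them all above. Over all genes tested, 21.8% lay wholly below and 22.4% wholly above, 44.2% in all. The background moved with single libraries, to 1529 genes higher and 1478 lower without RNF6 siRNA replicate 3 and to 1514 higher without control replicate 3, in place of 2442 higher and 2364 lower.

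**Figure D1:**
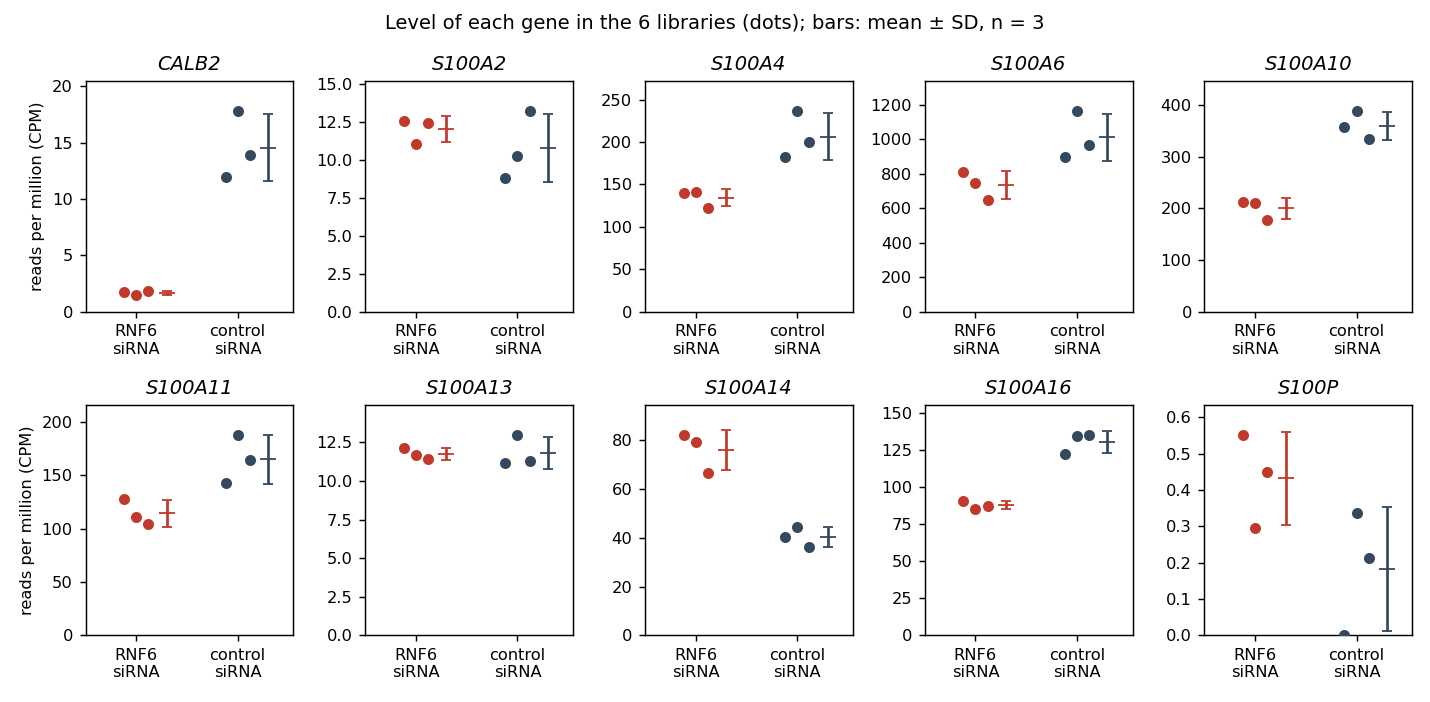
Levels of the 10 genes in each library, in CPM on a linear axis that starts at 0, with a panel per gene. Dots are libraries, RNF6 siRNA on the left and control siRNA on the right, and bars show the mean and SD of 3 libraries; CALB2 lies between 1.48 and 1.79 CPM in RNF6 siRNA libraries and between 12 and 17.8 CPM in control libraries, and S100A14 is the member whose RNF6 siRNA libraries all lie above its control libraries.

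CALB2 stood furthest apart among the members. It had 1.75, 1.48 and 1.79 CPM in the RNF6 siRNA libraries, against 12, 17.8 and 13.9 CPM in the control libraries. These levels rest on 19, 10 and 20 reads in RNF6 siRNA cells and on 87, 159 and 130 reads in control cells. Every RNF6 siRNA library thus lay far below the lowest control library. The means were 1.67 ± 0.172 CPM in RNF6 siRNA cells and 14.5 ± 2.97 CPM in control cells (SD, n = 3 each), an 8.55-fold lower level with a log2 fold change of -3.10 (SE 0.217). Summed over libraries and scaled by depth, the ratio of RNF6 siRNA to control was 0.116, with an exact 95% interval of 0.0841 to 0.156 that covers counting error only. Only 1 of all genes tested had a more negative fold change. Without any 1 library the value stayed between -3.22 and -2.93.

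CALB2 is also a mesothelial and a neural gene, so markers of those cells were measured beside it. The 7 mesothelial markers summed to between 43.8 and 62.1 CPM in RNF6 siRNA libraries and to between 57.2 and 74.4 CPM in control libraries, and nearly all of this came from MSLN (mesothelin), at 49.9 ± 9.34 CPM in RNF6 siRNA cells and 65.6 ± 8.92 CPM in control cells (log2 fold change -0.39, SE 0.144, edgeR adjusted p = 0.0528). The 9 neural and Schwann cell markers summed to between 6.64 and 8.83 CPM in RNF6 siRNA libraries and to between 8.32 and 9.51 CPM in control libraries. Neither sum differed between the groups by a factor near that of CALB2. The remaining marker lists were low or narrow: fibroblast genes summed to between 70.3 and 85.1 CPM in RNF6 siRNA libraries, almost all of it COL1A1, and to between 50.4 and 65.6 CPM in control libraries. Immune genes summed to at most 2.76 CPM in RNF6 siRNA libraries and 3.92 CPM in control libraries, and endothelial genes to at most 2.36 and 2.91 CPM in the same groups. Keratinocyte genes, led by KRT10, summed to between 20.8 and 21.7 CPM in RNF6 siRNA libraries and to between 31.5 and 40.0 CPM in control libraries. Of the genes of these lists that could be tested, 0 of 1 mesothelial and 0 of 2 neural genes passed edgeR's threshold, 1 of 2 fibroblast genes rose, and 1 of 1 keratinocyte genes fell, while no immune gene had enough reads. Over all genes tested, 16.6% passed as higher and 16.1% as lower, and nothing is read from counts over 1 or 2 genes. COL1A1 had an adjusted p of 0.0197, which was lost without RNF6 siRNA replicate 1 (0.0690) or 3 (0.0727) or control replicate 3 (0.0793), in a range of 0.00534 to 0.0969. The 1 endothelial gene in the fit, VWF, averaged 1.0 ± 0.187 CPM in RNF6 siRNA cells and 1.96 ± 0.391 CPM in control cells (SD, n = 3 each), and it passed the filter on low counts through its control libraries only, so no test is given. The part of these lists in the members' differences was not tested.

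Among the S100 genes, the promoters of the 5 members with a sequence in the RefSeq table, a call in the comparison and 1 listed start are shown with that of S100A3, an S100 gene outside the set that fell. RefSeq's table (GRCh38.p14) held 9 of the 10 members, 6 of them with 1 listed start. CALB2 had no entry. Each line gives the 100 bases that end just before the listed start, all on the minus strand, 5′ to 3′, and capitals mark matches to TATAA (the TATA box core), GGGCGG (the GC box bound by Sp1), TGANTCA (the AP-1 motif) or TTCCNGGAA (a STAT-type palindrome), searched on both strands.
S100A14, chr1:153616326-153616425: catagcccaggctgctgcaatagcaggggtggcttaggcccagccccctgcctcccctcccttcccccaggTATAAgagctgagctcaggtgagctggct
S100A10, chr1:151993860-151993959: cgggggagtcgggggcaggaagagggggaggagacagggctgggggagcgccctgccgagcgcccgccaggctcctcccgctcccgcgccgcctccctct
S100A4, chr1:153545807-153545906: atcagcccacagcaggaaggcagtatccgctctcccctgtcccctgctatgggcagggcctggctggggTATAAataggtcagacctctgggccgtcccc
S100A6, chr1:153535992-153536091: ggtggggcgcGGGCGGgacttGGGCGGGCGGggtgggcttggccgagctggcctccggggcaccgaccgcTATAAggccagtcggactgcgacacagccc
S100A11, chr1:152037005-152037104: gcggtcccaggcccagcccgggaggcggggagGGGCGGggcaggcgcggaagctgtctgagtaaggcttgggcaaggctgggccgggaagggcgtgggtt
S100A3, chr1:153549259-153549358: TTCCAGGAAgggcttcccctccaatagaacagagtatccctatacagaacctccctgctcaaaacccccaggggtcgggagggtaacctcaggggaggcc

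TATAA began at -29 in S100A14, at -31 in S100A4 and at -30 in S100A6, counting the base before the start as -1. It thus occurred in the member that was higher and in members that were lower, and it was not in the windows of S100A10 and S100A11. Among 35116 promoter windows of the same length, 9.0% held it. GGGCGG began at -90, -79 and -75 in S100A6, where the last 2 overlap, and at -68 in S100A11, while 31.3% of all windows held it. TGANTCA, found in 2.75% of windows, was in none of the 6 shown. TTCCNGGAA began at -100 in S100A3, and 0.339% of all windows held it. These matches describe letters only.

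S100A10, the light chain that holds annexin A2 at the membrane and that does not need calcium for it, had 212.3, 210.6 and 176.9 CPM in RNF6 siRNA libraries, against 357.8, 388.4 and 333.8 CPM in control libraries. The groups were far from overlapping. It averaged 199.9 ± 20.0 CPM in RNF6 siRNA cells and 360.0 ± 27.4 CPM in control cells (SD, n = 3 each), a 1.80-fold lower level (log2 fold change -0.85, SE 0.104).

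S100A4, a binder of non-muscle myosin that is known for its link to metastasis, had 140.1, 141.1 and 122.5 CPM in RNF6 siRNA libraries, against 182.4, 236.5 and 200.1 CPM in control libraries. The groups did not overlap, and control replicate 2 lay above the other controls. The means were 134.6 ± 10.5 CPM in RNF6 siRNA cells and 206.3 ± 27.6 CPM in control cells (SD, n = 3 each), with a log2 fold change of -0.62 (SE 0.113). S100A16, a widely expressed member, had 90.3, 84.9 and 87.3 CPM in RNF6 siRNA libraries, against 121.9, 134.2 and 135.0 CPM in control libraries. Its libraries lay close together within each group, at 87.5 ± 2.72 CPM in RNF6 siRNA cells and 130.4 ± 7.36 CPM in control cells (SD, n = 3 each; log2 fold change -0.58, SE 0.097).

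S100A11, a partner of annexin A1, had 128.4, 111.0 and 104.3 CPM in RNF6 siRNA libraries, against 142.8, 188.1 and 164.3 CPM in control libraries. It averaged 114.5 ± 12.4 CPM in RNF6 siRNA cells and 165.1 ± 22.7 CPM in control cells (SD, n = 3 each), and its log2 fold change was -0.53 (SE 0.121). The gap between its highest RNF6 siRNA library and its lowest control library was narrower than the spread within the control group. S100A11 has processed pseudogenes, and reads aligned to several places were not counted to any gene, so its level is uncertain.

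S100A6 (calcyclin), which binds calcyclin-binding protein, had 811.4, 744.1 and 649.2 CPM in RNF6 siRNA libraries, against 900.0, 1163 and 969.6 CPM in control libraries. The groups did not overlap, but the lowest control library lay near the highest RNF6 siRNA library. Means were 734.9 ± 81.5 CPM in RNF6 siRNA cells and 1011 ± 136.5 CPM in control cells (SD, n = 3 each), with a log2 fold change of -0.46 (SE 0.119). Without RNF6 siRNA replicate 3, its log2 fold change was -0.38 and it was not counted, so that 5 members in place of 6 were counted as lower. No other library or setting changed the members' counts.

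S100A14, an epithelial member known for weak calcium binding, was the member that went the other way. It had 82.2, 79.4 and 66.7 CPM in RNF6 siRNA libraries, against 40.4, 44.5 and 36.1 CPM in control libraries. Every RNF6 siRNA library lay above every control library. The means were 76.1 ± 8.25 CPM in RNF6 siRNA cells and 40.3 ± 4.25 CPM in control cells (SD, n = 3 each), a 1.89-fold higher level (log2 fold change 0.91, SE 0.122), and 626 of all genes tested had a larger positive fold change. S100A16, its direct neighbour in the cluster, was lower. The ratio of S100A14 to S100A16, formed within each library, was 0.910, 0.936 and 0.764 in RNF6 siRNA cells, against 0.332, 0.332 and 0.267 in control cells.

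S100A2 and S100A13 overlapped between the groups. S100A2, a nuclear p53-binding member, had 12.6, 11.1 and 12.5 CPM in RNF6 siRNA libraries, against 8.80, 10.3 and 13.2 CPM in control libraries, with a log2 fold change of 0.16 (SE 0.164). The control libraries alone spanned all RNF6 siRNA values. S100A13, which takes part in the release of FGF1 and interleukin-1 alpha, had 12.1, 11.7 and 11.4 CPM in RNF6 siRNA libraries, against 11.1, 13 and 11.3 CPM in control libraries (log2 fold change -0.01, SE 0.137). In GENCODE 29, 33.5% of the exon bases of S100A13 are shared with other genes, S100A1 on the opposite strand among them, and the counting's strand setting is not stated, so its level is uncertain.

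S100P, a member that binds ezrin and that is raised in many adenocarcinomas, was close to the limit of detection. It had 6, 2 and 5 reads in RNF6 siRNA libraries, against 0, 3 and 2 reads in control libraries. The depth-scaled ratio of the sums was 2.31 with an exact 95% interval of 0.772 to 8.27, which covers counting error only, so a difference was not detectable at this depth. The control library with 0 reads allows a level of up to 0.413 CPM, by a limit of 3 reads.

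**Figure D2:**
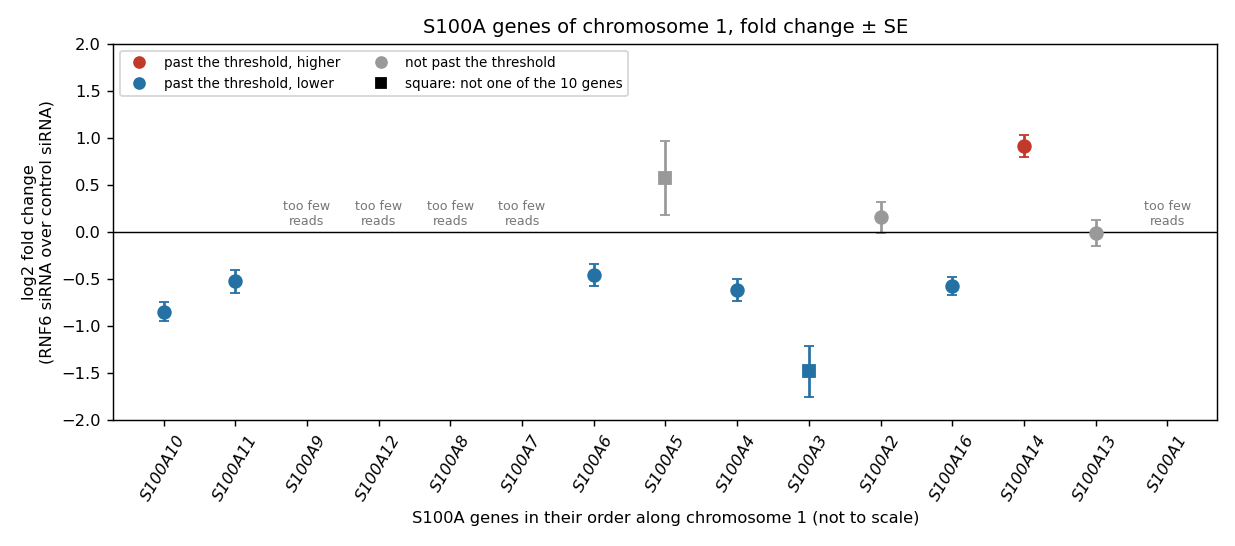
Log2 fold change, RNF6 siRNA over control siRNA, of the S100A genes of chromosome 1, drawn in their order along the chromosome at equal spacing and not to distance; error bars are SEs from edgeR and genes without a point had too few reads to be fitted. S100A10, S100A11, S100A6, S100A4, S100A3 and S100A16 lie below 0, S100A14 lies above 0 at 0.91, S100A5 at 0.58 did not pass the threshold, and S100A2 and S100A13 lie near 0.

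Per length, S100A6 was the leading member in both groups. In CPM per kilobase of exon (GENCODE 29 lengths) it averaged 756.9 ± 83.9 in RNF6 siRNA cells and 1041 ± 140.6 in control cells (SD, n = 3 each). S100A11 followed at 168.4 ± 18.3 in RNF6 siRNA cells and 242.7 ± 33.3 in control cells, where its libraries overlapped with those of S100A10. S100A4 stood at 131.3 ± 10.2 in RNF6 siRNA cells and 201.3 ± 26.9 in control cells, and S100A10 at 129.6 ± 12.9 in RNF6 siRNA cells and 233.3 ± 17.7 in control cells. The order of S100A4 and S100A10 thus differed by group, but their libraries overlapped in both groups. With the length of the longest annotated transcript, S100A10 stood above S100A11 in control cells, at 299.5 ± 22.8 against 277.9 ± 38.2. S100A14 stood at 59.6 ± 6.46 CPM per kilobase in RNF6 siRNA cells and 31.6 ± 3.32 in control cells, while S100A16 stood at 51.4 ± 1.6 in RNF6 siRNA cells and 76.6 ± 4.33 in control cells. In RNF6 siRNA cells these neighbours in the order overlapped, and in control cells S100A16 was above S100A14 in every library. With the longest transcript's length, S100A16 was above S100A14 in RNF6 siRNA cells too, at 76.4 ± 2.37 against 62.5 ± 6.77, without overlap. CALB2 was at 0.98 ± 0.10 CPM per kilobase in RNF6 siRNA cells, below S100A2 and S100A13, and at 8.54 ± 1.74 in control cells. In control cells its libraries overlapped with those of S100A2, which averaged 7.69 ± 0.54 in RNF6 siRNA cells and 6.88 ± 1.44 in control cells. S100A13 was at 5.29 ± 0.17 in RNF6 siRNA cells and 5.33 ± 0.46 in control cells, and S100P was last in both groups at 0.34 ± 0.10 and 0.14 ± 0.13.

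All 21 S100 genes listed summed to 1376 ± 131.3 CPM in RNF6 siRNA cells and 1942 ± 215.6 CPM in control cells (SD, n = 3 each), and the groups did not overlap. S100A6 took 57.5 ± 0.717% of the family's signal per kilobase in RNF6 siRNA cells and 56.4 ± 0.898% in control cells. S100A10 took 9.86 ± 0.332% in RNF6 siRNA cells and 12.7 ± 1.04% in control cells, and S100A14 took 4.53 ± 0.115% in RNF6 siRNA cells and 1.72 ± 0.162% in control cells. S100A4 took 10.0 ± 0.415% in RNF6 siRNA cells and 10.9 ± 0.197% in control cells, and S100A13 took 0.404 ± 0.0289% in RNF6 siRNA cells and 0.290 ± 0.0108% in control cells. For the shares of S100A10, S100A14, S100A4 and S100A13 the groups did not overlap, and for those of S100A6, S100A11 and S100A16 they did. A share also moves with the family's sum, which was lower in RNF6 siRNA cells. S100A13 itself overlapped between the groups in CPM (log2 fold change -0.01). The ratio of S100A14 to S100A10 varied little within the groups, at 0.387, 0.377 and 0.377 in RNF6 siRNA libraries, against 0.113, 0.115 and 0.108 in control libraries.

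**Figure D3:**
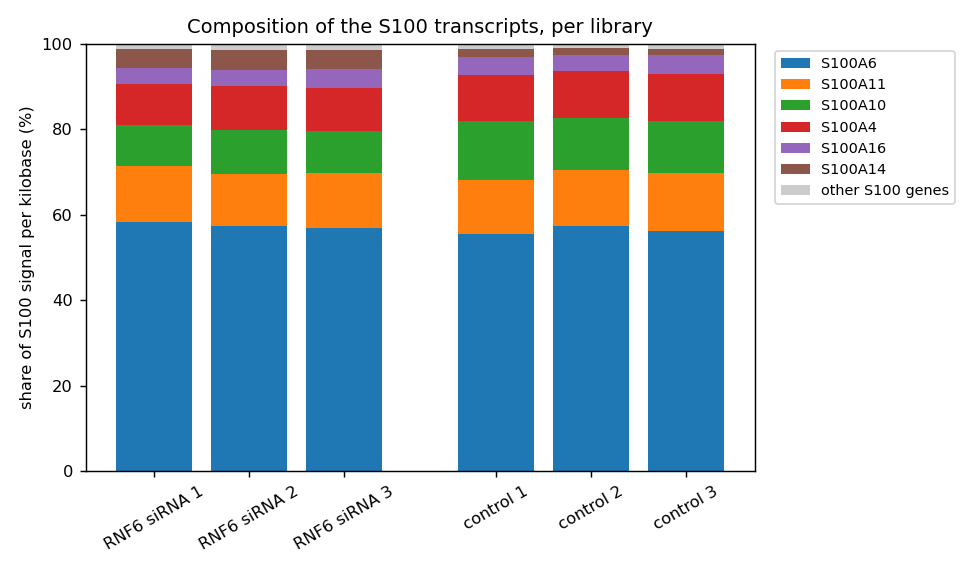
Share of the summed S100 signal per kilobase of exon taken by each gene, in percent, with a stacked bar per library, RNF6 siRNA libraries on the left and control libraries on the right. S100A6 takes the widest band of every bar, and the S100A14 band is 4.53% on average in RNF6 siRNA libraries and 1.72% in control libraries.

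Of the 12 S100 genes outside the set, 2 had enough reads to be tested, and 1 fell. S100A3, which lies between S100A4 and S100A2 in the cluster and is known from hair cuticle, had 1.38, 1.77 and 1.17 CPM in RNF6 siRNA libraries, against 4.82, 3.25 and 3.84 CPM in control libraries. It averaged 1.44 ± 0.307 CPM in RNF6 siRNA cells and 3.97 ± 0.792 CPM in control cells (SD, n = 3 each; log2 fold change -1.48, SE 0.270, edgeR adjusted p = 0.00120). Its adjusted p stayed between 1.15e-05 and 0.0123 under the alternatives. These levels rest on 40 reads in RNF6 siRNA cells and 100 in control cells. S100A5 did not pass, with a log2 fold change of 0.58 (SE 0.393, adjusted p = 0.285). S100B had 0 reads in RNF6 siRNA libraries and 8 in control libraries, and 4 of the 12 genes had 0 reads everywhere. Among 12 fused-type S100 genes and other small EF-hand buffers, only HRNR (hornerin, of the skin barrier) had enough reads. It averaged 1.64 ± 0.522 CPM in RNF6 siRNA cells and 0.542 ± 0.315 CPM in control cells (SD, n = 3 each). Only its RNF6 siRNA libraries reached the filter's level of 1.08 CPM, so a gene that passed in this way had to be higher there, and no test is given for it.

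Annexins bind membranes in the presence of calcium, and several pair with S100 proteins. Of 10 tested, 5 fell and 2 rose, with a median log2 fold change of -0.32. That is 50% lower and 20% higher, beside 16.1% and 16.6% of all genes tested. The annexins, like the lists that follow, were chosen with earlier results of these data known, so these shares are a description. ANXA1, the partner of S100A11, averaged 333.7 ± 26.9 CPM in RNF6 siRNA cells and 589.6 ± 17.1 CPM in control cells (SD, n = 3 each; log2 fold change -0.82, SE 0.095, edgeR adjusted p = 4.77e-05). ANXA2, the partner of S100A10 and the annexin with the most reads, averaged 787.5 ± 47.5 CPM in RNF6 siRNA cells and 1016 ± 114.5 CPM in control cells (log2 fold change -0.37, SE 0.105, adjusted p = 0.0176). Its call did not hold without RNF6 siRNA replicate 2 (adjusted p = 0.0638) or 3 (0.0791), or without control replicate 2 (0.0515) or 3 (0.0586), and the adjusted p ranged from 0.00125 to 0.0791 over all alternatives. S100A10 and its partner were thus both lower, and S100A10 had the more negative log2 fold change, at -0.85; the difference between the genes was not tested. ANXA3 fell as well, at 96.4 ± 2.61 CPM in RNF6 siRNA cells and 144.9 ± 13.5 CPM in control cells (log2 fold change -0.59, SE 0.101, adjusted p = 0.000857). ANXA5, widely used as a probe of dying cells, averaged 490.8 ± 40.0 CPM in RNF6 siRNA cells and 647.6 ± 8.04 CPM in control cells (log2 fold change -0.40, adjusted p = 0.00622). ANXA6 went the other way, at 234.4 ± 5.28 CPM in RNF6 siRNA cells and 135.2 ± 18.0 CPM in control cells (log2 fold change 0.79, SE 0.107, adjusted p = 0.000145). Without RNF6 siRNA replicate 2 or 3, or without control replicate 2 or 3, 3 annexins in place of 5 fell.

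Of the 27 receptors and other partners of S100 proteins tested, 7 fell, 4 rose and 16 did not pass, with a median log2 fold change of -0.07. EZR (ezrin), the cytoskeletal linker that S100P activates, had 971.9 ± 47.8 CPM in RNF6 siRNA cells and 1600 ± 31.6 CPM in control cells (SD, n = 3 each; log2 fold change -0.72, SE 0.092, edgeR adjusted p = 9.55e-05). EGFR, the epidermal growth factor receptor, had 103.4 ± 14.2 CPM in RNF6 siRNA cells and 215.9 ± 35.0 CPM in control cells (log2 fold change -1.06, SE 0.135, adjusted p = 8.94e-05). ALCAM, a cell adhesion molecule, fell with a log2 fold change of -0.58 (adjusted p = 0.00286). AGER, which encodes RAGE, the receptor of several secreted S100 proteins, rose to 4.58 ± 0.786 CPM in RNF6 siRNA cells, against 2.18 ± 0.149 CPM in control cells (log2 fold change 1.05, SE 0.231, adjusted p = 0.00411). Without RNF6 siRNA replicate 3 or control replicate 3, 1 partner in place of 4 rose and 4 in place of 7 fell. Genes of this list thus moved in both directions, and their shares were 14.8% higher and 25.9% lower, beside 16.6% and 16.1% of all genes tested.

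**Figure D4:**
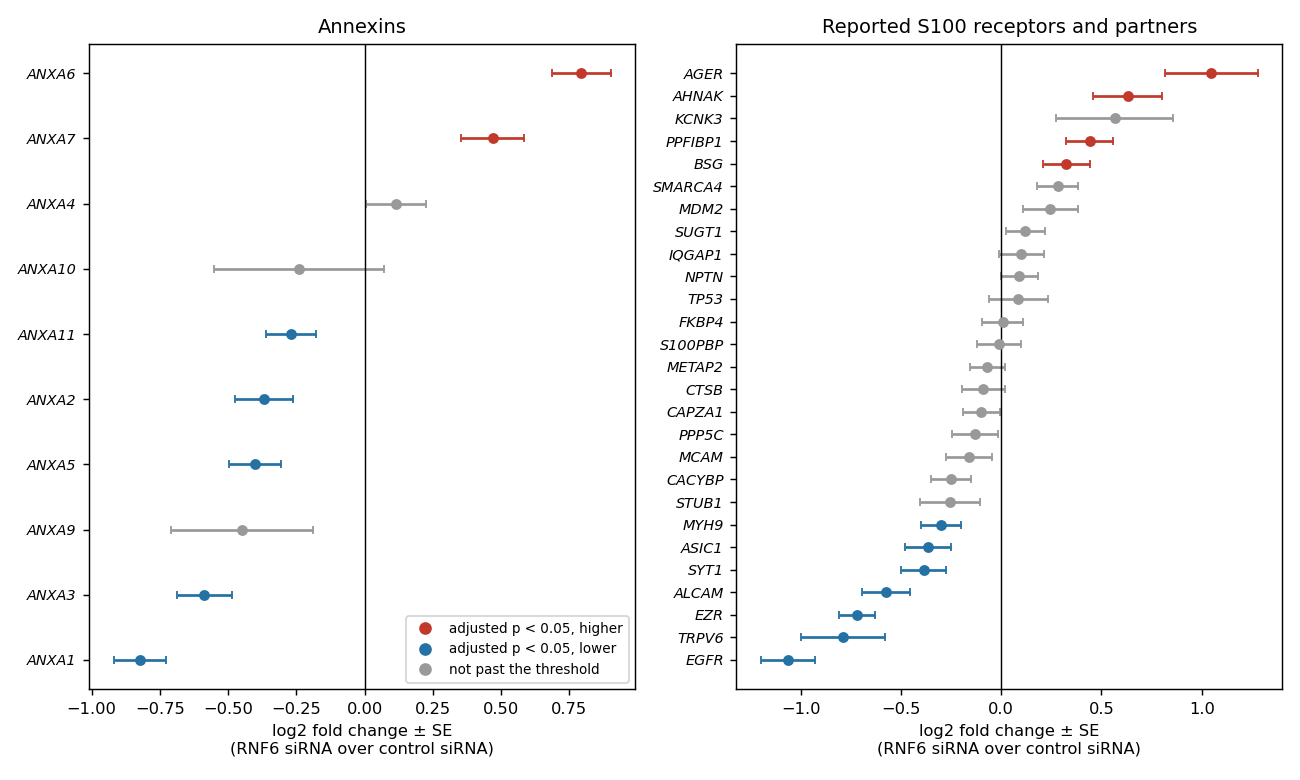
Log2 fold change, RNF6 siRNA over control siRNA, of the tested annexins and of the tested S100 partners and receptors, with SEs from edgeR as error bars and colour for genes past adjusted p below 0.05. Among annexins ANXA1 is lowest and ANXA6 highest, at -0.82 and 0.79, and among partners EGFR and AGER mark the fall and the rise named in the text, at -1.06 and 1.05.

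EF-hand genes outside the S100 family were measured beside CALB2. Of 54 tested, 13 fell, 2 rose and 39 did not pass, and the median log2 fold change was -0.02. That is 24.1% lower and 3.70% higher, beside 16.1% and 16.6% of all genes tested. NCALD (neurocalcin delta), a neuronal calcium sensor, averaged 1.32 ± 0.483 CPM in RNF6 siRNA cells and 5.70 ± 1.01 CPM in control cells (SD, n = 3 each). It passed the filter on low counts through its control libraries only, as 2 of the 13 that fell did, so its log2 fold change of -2.11 (SE 0.279) is given without a test. HPCAL4, of the same sensor family, fell to 21.0 ± 2.20 CPM in RNF6 siRNA cells, against 56.8 ± 1.88 CPM in control cells (log2 fold change -1.44, edgeR adjusted p = 3.13e-06). SLC25A13 (citrin), a calcium-binding mitochondrial carrier, and RCN1 (reticulocalbin 1), of the endoplasmic reticulum, fell with log2 fold changes of -1.11 and -0.87 (adjusted p = 4.89e-05 and 6.99e-05). ACTN4, an actin crosslinker and the gene with the most reads in the list, had a log2 fold change of -0.08 and did not pass (adjusted p = 0.592). CALB2, at -3.10, had a more negative log2 fold change than every tested gene of this list, of which NCALD was the lowest. Because CALB2 was chosen with this comparison known, its place below them is a description and supports nothing. The 2 that rose became 0 without RNF6 siRNA replicate 3 or control replicate 3, 1 without RNF6 siRNA replicate 1 or 2 or control replicate 2, and 5 without control replicate 1. The 13 that fell ranged from 9 to 16 when 1 library was left out.

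Of 26 genes of calcium entry, stores and export tested, 6 fell, 2 rose and 18 did not pass, with a median log2 fold change of -0.01. That is 23.1% lower and 7.69% higher, beside 16.1% and 16.6% of all genes tested. ATP2A2, the SERCA pump that fills the endoplasmic reticulum with calcium, averaged 186.2 ± 17.9 CPM in RNF6 siRNA cells and 370.6 ± 30.6 CPM in control cells (SD, n = 3 each; log2 fold change -0.99, SE 0.105, edgeR adjusted p = 2.34e-05). ITPR2, an inositol trisphosphate receptor that lets calcium out of the same store, rose to 29.4 ± 3.81 CPM in RNF6 siRNA cells, against 16.5 ± 3.61 CPM in control cells (log2 fold change 0.83, SE 0.161, adjusted p = 0.00190). CCDC109B, a subunit of the mitochondrial calcium uniporter that lowers its current, fell with a log2 fold change of -0.50 (adjusted p = 0.00438). TMCO1, a calcium leak channel of the endoplasmic reticulum, fell with a log2 fold change of -0.38 (adjusted p = 0.00846). The TMCO1 call was lost without RNF6 siRNA replicate 3 (adjusted p = 0.0503), and over all alternatives the adjusted p ranged from 0.00160 to 0.0650. Without RNF6 siRNA replicate 3 or control replicate 3, 1 gene in place of 2 rose and 4 in place of 6 fell.

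Genes that lie beside the members on their chromosomes moved both ways. Of 29 tested, 6 rose, 6 fell and 17 did not pass, with a median log2 fold change of 0.10. These shares, 20.7% higher and 20.7% lower, lay near the 16.6% and 16.1% of all genes tested. Beside the S100 cluster on chromosome 1, 4 of 14 rose and 3 fell. TPM3 (tropomyosin 3) had the most reads and did not pass (log2 fold change 0.24, adjusted p = 0.0538). Among those that fell was SNAPIN, a SNARE-associated protein, at 11 ± 0.834 CPM in RNF6 siRNA cells and 30.5 ± 3.42 CPM in control cells (log2 fold change -1.47, edgeR adjusted p = 8.02e-06). Beside S100P on chromosome 4, 2 of 10 rose and 3 fell. MRFAP1 was there at 394.1 ± 16.2 CPM in RNF6 siRNA cells and 185.6 ± 10.1 CPM in control cells (log2 fold change 1.09, adjusted p = 4.53e-06), and its paralogue MRFAP1L1 rose as well (log2 fold change 0.75, adjusted p = 0.000216). GRPEL1, a mitochondrial co-chaperone of the same stretch, fell (log2 fold change -1.19, adjusted p = 1.28e-05). Beside CALB2 on chromosome 16, 0 of 5 tested genes passed edgeR's threshold, and their log2 fold changes lay between -0.15 and 0.19. CALB2 itself was at -3.10, a value known from earlier results when the gene was chosen. The part of chromosomal position in the members' differences was not tested.

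The genes whose centred log2 CPM profile over the 6 libraries lay nearest to that of CALB2 were LITAF, MYD88, RITA1, DOLK and ALYREF, with root mean square distances of 0.242, 0.366, 0.456, 0.493 and 0.498. For S100A6 they were PSMA5, ITPKA, BEX2, TAGLN2 and LGALS1, with distances of 0.0308, 0.0372, 0.0425, 0.0451 and 0.0480. The 6 libraries share the 2 groups, so genes with a like group difference lie near each other. The distances are given as a description over the 11727 genes that averaged 5 CPM or more.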

How the data were processed

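RNA of 6 libraries was made with a TruSeq kit, per the labels' protocols. Reads were aligned with TopHat2 2.0.11 to hg19 (GRCh37) and counted per gene with HTSeq, per the submitters' processing notes, and the authors deposited whole-number counts per gene symbol. HTSeq's rows for reads in no gene, in several genes or aligned to several places were left out of library sizes. They held 27.3% to 29.4% of all rows' reads. edgeR 4.0.16 (R 4.3.3) was run on all genes after filterByExpr (minimum count 10, total 15), with TMM factors, robust quasi-likelihood tests, two-sided, and Benjamini-Hochberg adjustment over 14685 genes; CPM use TMM-scaled sizes. Alternatives were other scalings, no filter, DESeq2 1.42.0, limma-voom 3.58.1, each library left out and a replicate block. The fit was also run on simulated data with 200 changed genes, far fewer than were called here. That run does not check the calls of these data. Exact intervals cover counting error only. Exon lengths came from GENCODE 29, and the gene order and promoters from RefSeq. The 10 members and all 14 gene lists were chosen with earlier results of these data known. All members and RNF6 were named, with up to 4 called genes of smallest adjusted p and the gene with the most reads per list, and the 5 nearest profiles of CALB2 and S100A6; other genes were named after their values were seen. Groups follow the labels.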

Additional observations from a re-analysis of the deposited data

How the results depend on the processing

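No called result changed direction under any alternative run, while S100A13, which was not called, had log2 fold changes from -0.06 to 0.06. Of the counts and levels that answer a comparison, 181 values under alternatives stayed within 1.5 times and 36 did not. Replicate numbers did not pair the libraries (same-number correlations of -0.41, -0.21 and 0.05), and with a replicate block the model called 1421 genes higher and 1321 lower, in place of 2442 and 2364, with 1 annexin higher and 3 lower, 2 partners higher and 4 lower, 0 other EF-hand genes higher and 8 lower, and 1 calcium-handling gene higher and 3 lower. Of the genes with a call named above, the block also lost ANXA2 (adjusted p = 0.0749), TMCO1 (0.0650) and COL1A1 (0.0969). Without any 1 library, genes called ranged from 1514 to 2910 higher and from 1478 to 2967 lower. Annexins ranged from 3 to 6 lower, and partners from 1 to 4 higher and from 4 to 10 lower. Other EF-hand genes ranged from 0 to 5 higher and from 9 to 16 lower. Calcium-handling genes ranged from 1 to 3 higher and from 4 to 8 lower. DESeq2 called 1 other EF-hand gene higher. Calls of the fused-type list are left out, because HRNR, its only gene in the fit, passed the filter through its RNF6 siRNA libraries only. With no filter on low counts, 2 other S100 genes (S100A3 and S100B) were lower and 1 other EF-hand gene was higher. S100B had 0 reads in RNF6 siRNA libraries and at most 3 reads in a library, so nothing is read from its call. With lengths of the longest annotated transcript, 6 of 10 members kept their rank per kilobase in control cells, and S100A14 and S100A16 changed places in RNF6 siRNA cells. The causes were not tested. Called members stayed at 1 higher under every alternative, and at 6 lower except for 5 without RNF6 siRNA replicate 3. Single genes gave 877 values on the same side of the threshold, 114 that no longer passed and 10 that newly passed. Depth limits CALB2 in RNF6 siRNA cells, S100P and S100A3, which rest on few reads.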

Other observations

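Library-to-library deviations went the same way in many of the members. RNF6 siRNA replicate 1 was the highest of its group for 7 of the 9 tested members and RNF6 siRNA replicate 3 the lowest for 6, while control replicate 2 was the highest of its group for 7 and control replicate 1 the lowest for 7. The like shares over all genes tested were not counted, so this cannot be told apart from a shift of whole libraries. The members are therefore not taken as independent readings of the group difference.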
